A study of Homo sapiens with 9 samples.

Results

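A set of 9810 distal regions of open chromatin was found in every one of 9 ATAC-seq libraries of K562 cells, in which the Tn5 transposase tags open DNA. The regions were chosen by the deposited peak lists themselves. From each list the 50000 peaks with the highest −log10 p on chromosomes 1 to 22 and X were taken and merged wherever they overlapped by at least 1 bp, which gave 105878 regions. A region was kept if all 9 lists held it, if it was shorter than 2.5 kb, and if its midpoint lay 1 to 200 kb from the nearest start site of a protein-coding transcript. Of the 105878 regions, 19254 were in all 9 lists, and the 9810 members made up 50.95% of those and 9.265% of all merged regions. The other regions in all 9 lists were 7961 within 1 kb of a start site, 1229 more than 200 kb from one and 254 of 2.5 kb or wider. Because membership required a strong peak in all 9 lists, a region that was lost altogether in 1 genotype could not be a member, and presence in the 9 lists is not a finding.

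K562 is an established human leukaemia line with erythroid features. The study compared 3 genotypes with 3 libraries each: the parental cells, wild type for STAG2; 1 edited line with STAG2 R614* in heterozygous form (STAG2 R614* +/-); and 1 edited line with it in homozygous form (STAG2 R614* -/-), titled STAG2nullA. Editing was by CRISPR-Cas9, and R614* replaces an arginine codon with a stop. Each library used 50000 cells and single-end reads of 100 bp. The homozygous cells grew adherent and were released with trypsin, per the labels, so genotype, line and adherent growth cannot be told apart. The labels do not say that replicates were separate cultures, so p-values measure the spread between these libraries, which may be technical. The lists hold no read counts and the depth of each library is unknown.

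STAG2 belongs to cohesin, a protein ring that extrudes and holds chromatin loops and that is retained where CTCF sits on DNA. Distal open regions comprise enhancers and CTCF-bound sites. In erythroid cells enhancers are bound by GATA factors, often with TAL1 at an E-box beside the GATA motif, and by NFE2, RUNX, KLF and ETS factors. AP-1 is a dimer of JUN and FOS proteins that responds to growth and adhesion signals, and TEAD factors act with YAP.

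The members that the results turn on are shown in GRCh37, plus strand, 5′ to 3′, as up to 100 bases on each side of the summit. The first set shows regions with the motifs of loop and enhancer factors. The capitals mark the CTCF core in the regions near SCAF8 and SLC35F3. They mark the AP-1 motif (TGACTCA or TGAGTCA) and the joint GATA and E-box motif in HMCN1, and any searched motif in the others. The SCAF8 and SLC35F3 regions were added after their values were seen, from the members outside untranslated regions with the core within 100 bp of the summit. The first is the strongest of these, and the second has the largest fall among those called between homozygous and wild type.
SCAF8, chr6:154996792-154996992: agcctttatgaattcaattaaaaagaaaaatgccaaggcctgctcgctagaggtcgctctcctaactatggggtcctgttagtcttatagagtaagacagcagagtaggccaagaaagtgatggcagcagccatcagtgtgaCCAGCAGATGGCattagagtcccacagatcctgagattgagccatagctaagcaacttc
SLC35F3, chr1:234201617-234201817: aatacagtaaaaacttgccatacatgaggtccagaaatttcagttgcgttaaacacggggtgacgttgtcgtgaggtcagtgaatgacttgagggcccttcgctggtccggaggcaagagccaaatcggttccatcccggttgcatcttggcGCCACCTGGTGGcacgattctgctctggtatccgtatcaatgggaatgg
HMCN1, chr1:186081550-186081750: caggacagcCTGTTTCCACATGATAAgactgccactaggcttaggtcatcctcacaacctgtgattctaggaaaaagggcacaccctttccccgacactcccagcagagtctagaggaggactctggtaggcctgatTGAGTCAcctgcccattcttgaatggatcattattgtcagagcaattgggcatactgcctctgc
GOPC, chr6:117916343-117916543: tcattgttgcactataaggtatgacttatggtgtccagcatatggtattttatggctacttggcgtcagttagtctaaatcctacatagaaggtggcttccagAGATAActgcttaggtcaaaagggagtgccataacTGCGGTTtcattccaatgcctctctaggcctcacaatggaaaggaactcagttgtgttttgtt
CDC42SE2, chr5:130708988-130709188: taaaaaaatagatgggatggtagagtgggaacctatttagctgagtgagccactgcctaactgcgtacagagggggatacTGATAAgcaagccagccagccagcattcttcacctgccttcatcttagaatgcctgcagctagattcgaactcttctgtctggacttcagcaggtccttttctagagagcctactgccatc
DYNLT5, chr1:67223907-67224107: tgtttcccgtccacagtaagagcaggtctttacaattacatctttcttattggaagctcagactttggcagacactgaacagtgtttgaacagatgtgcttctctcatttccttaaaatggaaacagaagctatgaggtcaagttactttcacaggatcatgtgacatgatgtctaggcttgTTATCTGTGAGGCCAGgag
ITGA2, chr5:52315201-52315401: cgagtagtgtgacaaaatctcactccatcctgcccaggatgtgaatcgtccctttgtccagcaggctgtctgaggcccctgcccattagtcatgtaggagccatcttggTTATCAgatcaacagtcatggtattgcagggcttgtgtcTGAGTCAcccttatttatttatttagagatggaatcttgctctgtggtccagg

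The second set shows a region without any of the searched motifs near the summit that ranked higher in the homozygous libraries, and 1 of the strongest members. The NRXN2 window is rich in C and G. The capitals in the NGB window mark a RUNX motif (TGTGGTT or TGCGGTT), which follows a run of alternating C and T.
NRXN2, chr11:64397637-64397837: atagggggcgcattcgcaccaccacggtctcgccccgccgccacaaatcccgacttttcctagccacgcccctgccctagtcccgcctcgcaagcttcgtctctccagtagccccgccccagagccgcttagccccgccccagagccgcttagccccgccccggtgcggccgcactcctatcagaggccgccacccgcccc
NGB, chr14:77736037-77736237: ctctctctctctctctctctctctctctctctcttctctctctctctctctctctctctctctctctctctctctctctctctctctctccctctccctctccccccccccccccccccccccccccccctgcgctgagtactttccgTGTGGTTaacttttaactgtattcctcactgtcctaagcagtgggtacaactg

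The members were moderately wide, with a median width of 1013.5 bp, a median GC content of 48.6% in the 500 bp around the midpoint and a median distance of 29344.5 bp to the nearest start site. Regions found within 1 kb of a start site were wider and richer in GC, with medians of 1539 bp and 67% GC. By the midpoint, 4207 members lay in introns of protein-coding genes and 3414 were intergenic. A further 1250 lay in introns of other gene types, 492 in exons of other gene types, 234 in exons of protein-coding genes and 213 in their untranslated regions. The members had 5577 different nearest genes, and 2117 of them (21.58%) had another member within 12500 bp. The regions closest to the limits of the rule were 2498 and 2501 bp wide on either side of the width limit. They lay 1004 and 998 bp from a start site at the near limit, and 199996 and 200012 bp at the far limit.

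The CTCF core and the AP-1, NFE2, joint GATA and E-box, RUNX and ETS motifs were more frequent in the members than in the flanking DNA, while the 95% Wilson intervals of the GATA, KLF and TEAD shares overlapped. The CTCF core was present within 250 bp of the midpoint in 664 members (6.77%, 95% Wilson interval 6.29 to 7.28%) and in 0.275% of windows 2 kb downstream. It was present in 0.779% of the constitutive regions within 1 kb of a start site, in 8.22% of those over 200 kb from one (6.81 to 9.89%) and in 4.23% of all merged regions. AP-1 motifs were in 20.2% of members against 7.71% downstream, and the longer NFE2 motif (GCTGAGTCA), which contains an AP-1 motif, in 3.25% against 0.591%. GATA motifs (AGATAA or TGATAA) were in 46.9% of members and 45.1% of downstream windows, so the short GATA word alone barely separated them. The joint GATA and E-box motif, which contains a GATA motif, was in 8.51% against 1.97%. RUNX motifs were in 13.4% against 10.2%, the KLF motif (CCACACCC) in 6.14% against 5.23%, the ETS motif (CCGGAAGT) in 0.897% against 0.336%, and the TEAD motif (ACATTCC) in 6.85% against 6.81%. The ETS motif was in 8.86% of the regions within 1 kb of a start site. No motif of the 9 was found in 2995 members. Both strands were searched, and a match is a description of the letters and not a bound site.

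The lists are not all independent, and this touches every comparison of genotypes. Wild type replicates 1 and 2 shared 23.25% of their intervals exactly, base for base at both ends. Wild type replicate 3 and heterozygous replicate 1, which carry different genotype labels, shared 45.98%. The figure was 1.167% for heterozygous replicates 2 and 3 and 0.2229 to 0.3506% for the remaining 33 pairs. Over the members, the within-list percentiles correlated at r = 0.793 for the first pair and 0.861 for the second, as a description across 9810 regions. The 3 homozygous libraries correlated with each other at 0.437 to 0.441 and with the other 6 at 0.28 to 0.343. Among those other 6, heterozygous replicates 2 and 3 correlated at 0.625, and the pairs not yet given at 0.451 to 0.523. A second fit therefore used each source once: the mean of wild type replicates 1 and 2, the mean of wild type replicate 3 and heterozygous replicate 1, heterozygous replicates 2 and 3, and the 3 homozygous libraries, with the homozygous libraries set against the 4 other sources. That fit mixes wild type and heterozygous libraries on its other side, and it counts heterozygous replicates 2 and 3 as separate sources.

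The labelled cell type was checked at start sites. A strong peak within 1 kb of a start site was present in all 9 lists at 7 of 12 erythroid markers, among them TAL1, LMO2, HBE1 and TFRC. GATA1, KLF1 and ALAS2 had none in any list. Such a peak was also present in all 9 lists at 1 of 5 lymphoid markers (EBF1), 1 of 3 myeloid (SPI1), 1 of 3 epithelial (EPCAM) and 3 of 3 mesenchymal markers (COL1A1, COL1A2 and VIM).

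The members ranked lower within the homozygous lists than within the others. The strength of a region in a library was its within-file percentile, the rank of its strongest peak by −log10 p among that file's 50000 peaks, where 100 is the strongest. The median percentile of the 9810 members was 75.0, 75.0 and 74.8 in wild type replicates 1 to 3. It was 74.6, 73.9 and 74.4 in the heterozygous replicates and 71.2, 70.1 and 71.8 in the homozygous replicates. The 3 homozygous medians therefore lay below all 6 others, and the genotype means were 74.9 ± 0.140, 74.3 ± 0.353 and 71.0 ± 0.834 (SD, n = 3 libraries each). Member by member, the homozygous mean was lower than the wild type mean by a median of 3.77 points (a difference of -3.77), against -0.769 over all 19254 regions. The median difference was -0.362 between heterozygous and wild type and -3.55 between homozygous and heterozygous. With each source once it was -3.25.

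The constitutive regions near start sites ranked higher than elsewhere in 2 of the 3 homozygous libraries. Their median percentile was 76.5, 76.1 and 76.2 in wild type, 76.3, 77.4 and 77.1 in the heterozygous and 80.6, 81.5 and 76.7 in the homozygous libraries. Homozygous replicate 3 thus lay within the range of the other 6 libraries. The median near a start site exceeded the members' median by 1.33 ± 0.177 points in wild type, 2.65 ± 0.934 in the heterozygous and 8.54 ± 3.33 in the homozygous libraries (SD, n = 3). Percentiles are relative within a list, so a fall of the members and a rise of regions near start sites cannot be told apart. The lists also differed in their weakest included peak: the −log10 p at rank 50000 was 5.49, 4.95 and 6.73 in the homozygous libraries and 5.82 to 6.44 in the other 6, and the part of this in the ranks was not tested. The regions over 200 kb from a start site resembled the members, with a median difference of -4.07 points between homozygous and wild type.

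**Figure D1:**
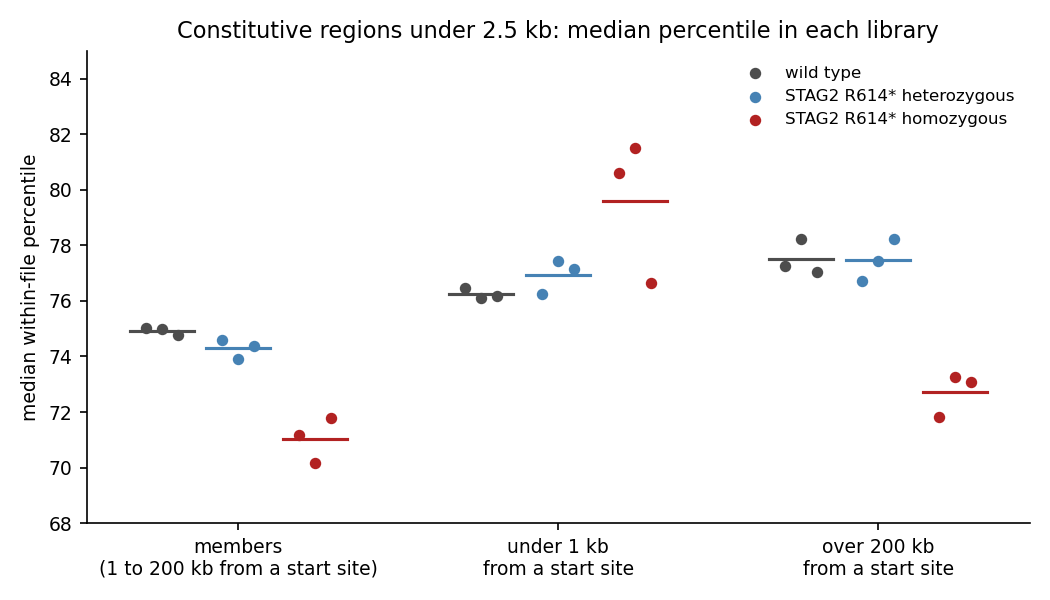
Median within-file percentile (y axis, which does not start at 0) of constitutive regions under 2.5 kb in each library (points), for the members and for regions under 1 kb or over 200 kb from a start site, with the mean of 3 libraries as a line. The 3 homozygous points of the members, 70.1 to 71.8, lie below all other libraries, while near start sites 2 of 3 homozygous points lie above all others.

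Distal regions that missed membership by 1 list most often lacked a homozygous one. Another 4345 distal regions under 2.5 kb were in 8 of the 9 lists. The list that lacked the region was a homozygous one for 924, 1126 and 866 of them (replicates 1 to 3), against 114 to 375 for each of the other 6 libraries. The 4 lists that share many intervals with another had 114 to 245, and heterozygous replicates 2 and 3 had 375 and 343. Lists that share intervals tend to lack a region together, and the part of this in the counts was not tested. The counts come from the lists that defined membership, and none were made for regions near start sites. The 4345 regions were weaker where present, with a median percentile of 51.3 against 69.1 for the members.

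Single members were tested with limma on the normal score of the percentile, fitted over all 19254 regions, with Benjamini-Hochberg adjustment and a threshold of 0.05. Between homozygous and wild type, 105 members were higher and 203 lower. The background over all 19254 regions was 0.904% higher and 1.29% lower, and the members' shares were 1.07% and 2.07%. In every one of these 308 members the 3 homozygous values lay outside the range of the 3 wild type values. Groups did not overlap in 998 members with homozygous above wild type and in 1579 below, against a background of 12.3% and 13.2%. Between homozygous and heterozygous, 146 members were higher and 199 lower (background 1.19% and 1.28%). The groups of that comparison did not overlap in 1003 and 1486 members (background 11.7% and 12.7%). The comparisons share the homozygous libraries.

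Between heterozygous and wild type, 0 members passed in either direction by limma, and 0.0% of all regions did. At an unadjusted p under 0.05 there were 695 members and 1111 of all regions. The groups did not overlap in 523 members with heterozygous above wild type and in 667 below (background 5.64% and 6.04%). Because wild type replicate 3 and heterozygous replicate 1 share intervals, this comparison was also fitted without that pair, and again 0 members passed. At an unadjusted p under 0.05 there were then 1437 members and 2420 of all regions, and without wild type replicate 3 alone 1426 and 2358.

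The number of calls against wild type changed with the pair of wild type lists that share intervals. With wild type replicate 1 left out, with replicate 2 left out, or with the pair averaged to 1 value, 0 members passed between homozygous and wild type. The median difference of the members was then -3.68 without replicate 1 and -3.84 without replicate 2. The score difference of the GOPC region, the largest fall, was -2.99, -3.06 and -3.02 under these 3 settings, against -3.08 with all libraries. Other regions described below moved more. The score difference was 2.80, 2.18 and 2.49 at NRXN2, against 2.62 with all libraries. At KRTAP10-1 it was 2.31, 2.28 and 2.29, against 2.54. With each source once, 94 members were higher and 121 lower in the homozygous libraries (background 0.691% and 0.774%). Of the 105 higher members 67 were among those (63.8%, and 71.3% of the 94), and of the 203 lower members 96 were (47.3%, and 79.3% of the 121). Leaving out each source in turn gave 37 to 184 calls, with 39 without heterozygous replicate 2 and 37 without heterozygous replicate 3. Leaving out heterozygous replicate 2 or homozygous replicate 1 or 2 from the fit of all 9 libraries gave 176, 198 and 140 calls in place of 308. On the percentile scale without the normal score, the split was 8 higher and 91 lower. Between homozygous and heterozygous that scale gave 32 higher and 98 lower. The calls of that comparison numbered 71 without heterozygous replicate 2, 56 without replicate 3 and 163 without replicate 1. They numbered 168 or 171 without wild type replicate 1 or 2, and 163 without homozygous replicate 2.

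**Figure D2:**
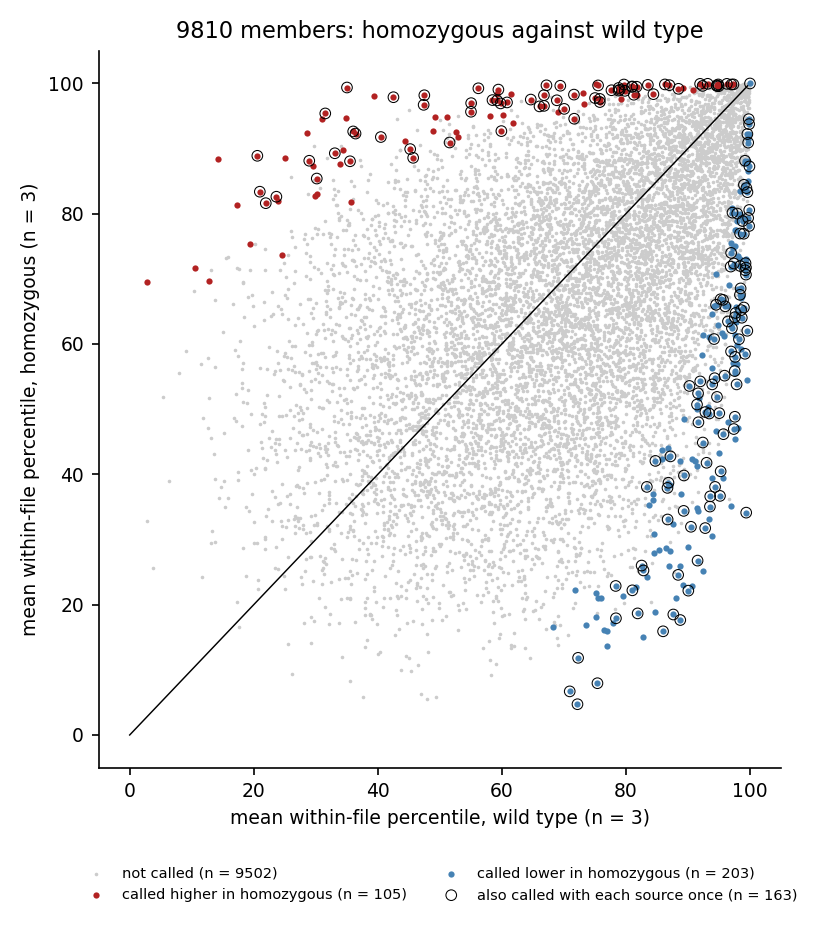
Mean within-file percentile of each member in wild type (x axis) and homozygous libraries (y axis), 3 libraries each, with members called higher (red, 105) or lower (blue, 203) and a ring around those also called with each source once. The lower members start from high wild type percentiles and spread down to below 10, and the higher members mostly end near the top.

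The members that were lower in the homozygous libraries were strong ones in the other genotypes. Their median percentile was 95.4, 96.1 and 95.3 in wild type, 94.4, 92.3 and 92.0 in the heterozygous, and 48.4, 53.7 and 56.3 in the homozygous libraries. The heterozygous medians thus lay near those of wild type. The higher members had medians of 56.0, 60.7 and 66.2 in wild type, 63.4, 72.1 and 72.5 in the heterozygous, and 97.1, 97.9 and 97.6 in the homozygous libraries. Fewer than 5 points separated the genotypes in 6 higher members and 1 lower member, since the normal score stretches the top of the scale. The calls rest on these same wild type and homozygous values, on that score. The levels of the called members in those 2 genotypes therefore follow in part from the choice and are not a separate finding.

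The largest falls were in regions beside genes of varied function. The region in an intron of GOPC, a Golgi-associated sorting protein (chr6:117916146-117916929), had percentiles of 99.7, 99.5 and 99.0 in wild type and 96.9, 97.2 and 96.6 in heterozygous libraries. It had 7.34, 74.2 and 20.9 in the homozygous ones, all below the other 6. Its normal score fell by 3.08 ± 0.43 (SE; limma adjusted p = 0.0106), and it was also called with each source once. The summit sequence shown for it holds a GATA motif and a RUNX motif.

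The region in an intron of CDC42SE2, a small effector of the GTPase CDC42 (chr5:130708792-130709732), had 99.8, 99.7 and 98.8 in wild type, 99.0, 90.9 and 95.4 in the heterozygous and 63.1, 20.7 and 79.6 in the homozygous libraries. The groups did not overlap, and its score fell by 2.51 ± 0.40 (SE; limma adjusted p = 0.0154). It was not called with each source once. The region 106596 bp from the start of PDCD6IP, which encodes the endosomal sorting protein ALIX (chr3:33946152-33947283), had 77.2, 55.4 and 80.3 in wild type, 81.3, 80.3 and 89.1 in the heterozygous and 0.187, 17.2 and 2.64 in the homozygous libraries. It was near the bottom of all 3 homozygous lists and passed against both wild type (limma adjusted p = 0.0256) and heterozygous (limma adjusted p = 0.0143), and with each source once.

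The region near CARNMT1, a carnosine methyltransferase (chr9:77665928-77666766), had wild type values of 98.7, 98.0 and 80.5 and homozygous values of 21.3, 47.03 and 7.16. Heterozygous libraries lay between, at 72.7 to 78.5. The region 3369 bp from the start of EEF1A1, the translation elongation factor that delivers tRNAs to the ribosome (chr6:74238225-74239132), had 92.5, 93.6 and 80.2 in wild type, 95.9, 66.3 and 83.9 in the heterozygous and 1.40, 40.1 and 11.4 in the homozygous libraries. Both passed against wild type (limma adjusted p = 0.0181 and 0.0296), the second also with each source once.

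Against heterozygous, the largest fall was in an intron of DYNLT5, a dynein light chain family member (chr1:67223355-67224379). Its values were 99.0, 98.1 and 98.0 in the heterozygous, 87.9, 83.3 and 99.0 in wild type and 36.1, 27.5 and 2.81 in the homozygous libraries. The score fell by 3.11 ± 0.44 (SE; limma adjusted p = 0.00842), and the sequence shown for it holds the joint GATA and E-box motif. Calls of this region held under all 17 alternatives that gave it a value.

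The members with the largest rises against wild type included a GC-rich region. The region in an intron of NRXN2, a neuronal adhesion molecule (chr11:64397189-64398076), had 26.4, 3.08 and 32.3 in wild type, 40.0, 21.0 and 43.7 in the heterozygous and 69.4, 98.6 and 98.6 in the homozygous libraries (limma adjusted p = 0.0299). It was also called with each source once.

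The region inside TSPEAR near the keratin-associated gene KRTAP10-1 (chr21:45936802-45937815) had 3.56, 3.08 and 36.0 in wild type, 43.4, 43.5 and 54.0 in the heterozygous and 89.2, 88.2 and 87.8 in the homozygous libraries (limma adjusted p = 0.0158). The region near PRODH2, a hydroxyproline dehydrogenase gene (chr19:36306293-36306814), had 3.56, 23.5 and 66.2 in wild type, 71.0, 59.4 and 84.2 in the heterozygous and 91.2, 99.3 and 92.8 in the homozygous libraries (limma adjusted p = 0.0345). Neither the KRTAP10-1 nor the PRODH2 region was called with each source once. The wild type values of 3.56 and 3.08, also at NRXN2, are the middle of blocks of 3564 and 3076 peaks with an identical −log10 p. Ranks inside those blocks carry no order, and they are the lowest member values in wild type replicates 1 and 2. The largest tied blocks also held homozygous replicate 1 at CARNMT1 (4233 peaks) and homozygous replicate 2 at DYNLT5 (4110 peaks). At the ITGA2 region described next, they held wild type replicate 3 (2235 peaks) and heterozygous replicate 3 (4517 peaks).

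Against heterozygous, 2 rises led. The region in an intron of ITGA2, the collagen-binding integrin subunit (chr5:52315013-52315578), had 29.1, 0.944 and 6.81 in the heterozygous, 81.0, 33.7 and 20.4 in wild type and 91.2, 98.5 and 97.9 in the homozygous libraries. Its score was higher by 3.32 ± 0.53 (SE; limma adjusted p = 0.0142), and the sequence shown for it holds AP-1 and GATA motifs. The region in an intron of ADGRG6, an adhesion G protein-coupled receptor (chr6:142721451-142722412), had 21.9, 1.95 and 12.3 in the heterozygous, 94.5, 95.9 and 43.3 in wild type and 91.2, 89.3 and 99.3 in the homozygous libraries (limma adjusted p = 0.0198). There the heterozygous libraries stood apart, and wild type and homozygous values overlapped.

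Repeated sequence was measured after the calls were seen. A member was counted as holding repeated sequence when at least 5% of the 14-base words in its 500 bp occurred 1000 or more times on chromosome 1 of the reference. This held for 1126 of 9810 members (11.5%), for 28.7% of windows 2 kb downstream and for 1.96% of regions near start sites. It held for 41 of the 105 members higher in the homozygous libraries (39.0%) and 15 of the 203 lower ones (7.39%). With each source once it held for 35 of 94 higher (37.2%) and 13 of 121 lower members (10.7%). The 1126 members with repeated words had medians of 73.4, 73.3 and 72.9 in wild type, 71.0, 70.6 and 73.4 in the heterozygous and 74.4, 75.3 and 75.7 in the homozygous libraries. The homozygous medians were thus the highest there, whereas in the 8684 other members they were 70.8, 69.5 and 71.3 against 74.2 to 75.4 elsewhere. The median difference between homozygous and wild type was 0.616 points with repeated words and -4.30 without. Among the regions named above, repeated words made up 46.8% of the PRODH2 window, 19.3% of the NGB window, 18.3% of the PDCD6IP window and 13.3% of the ITGA2 window. Words repeated only within a region, or rare on chromosome 1, are not counted, so these shares do not cover every kind of repeat. The treatment of reads that map to several places is not given in the sources used here, and the part of repeated sequence in the calls was not tested.

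Members with a CTCF core had the largest negative median difference of the 9 motif classes. Their median percentile (664 members) was 74.2, 72.7 and 76.2 in wild type, 76.7, 75.7 and 71.4 in the heterozygous and 68.8, 65.3 and 61.1 in the homozygous libraries. All 3 homozygous medians lay below the other 6. The median difference between homozygous and wild type was -7.32 points, and only 29.2% of these members had a higher homozygous mean. With each source once the difference was -8.24, and between heterozygous and wild type it was 0.0268. By limma 0 of the 105 higher members and 15 of the 203 lower members (7.39%) held the core. The 95% Wilson interval of that share, 4.53 to 11.8%, includes the 6.77% of all members.

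Single regions with a CTCF core near the summit differed widely. In SLC35F3 the core lies outside the 500 bp around the midpoint, so that region is not among the 664. The region 147959 bp from a start site in SLC35F3, a putative solute transporter gene (chr1:234201454-234202662), had 93.9, 94.4 and 83.9 in wild type, 83.1, 76.6 and 54.3 in the heterozygous and 17.0, 22.5 and 29.2 in the homozygous libraries. Its score fell by 2.13 ± 0.32 (SE; limma adjusted p = 0.0139), and it was not called with each source once. The region 57576 bp from SCAF8, an RNA polymerase II-binding protein (chr6:154996637-154997234), had 96.8 to 99.4 in all 9 libraries (limma adjusted p = 0.729). The strongest member with the core near the summit, in an untranslated region of KLF15, had 99.1 to 99.9.

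**Figure D3:**
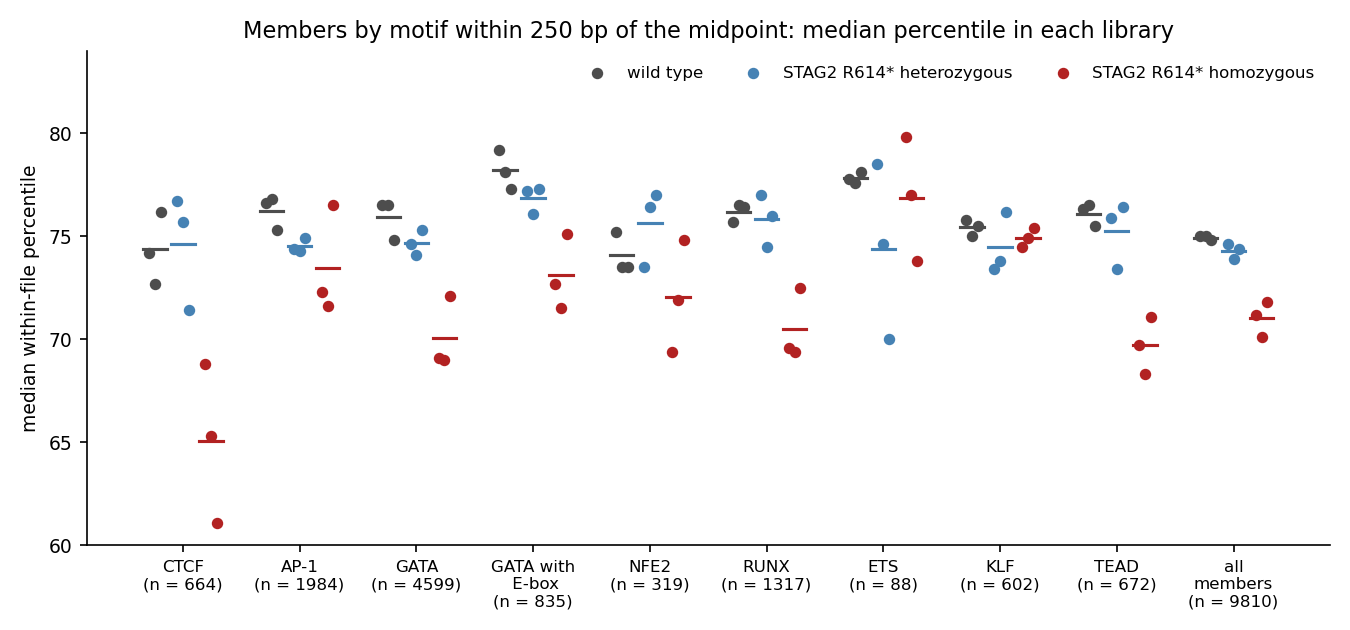
Median within-file percentile (y axis, which does not start at 0) in each library (points; lines are means of 3 libraries) of the members with each motif in the 500 bp around the midpoint, with the number of members below each name. The homozygous points lie below all others for CTCF, GATA, the joint GATA and E-box motif, RUNX and TEAD, with the lowest for CTCF at 61.1.

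GATA, RUNX and TEAD members were also lower in every homozygous library. GATA members (4599) had homozygous medians of 69.1, 69.0 and 72.1 against 74.1 to 76.5 elsewhere, a median difference of -5.26 points between homozygous and wild type. GATA motifs were in 60.1% of the lower calls (95% Wilson interval 53.2 to 66.6%), 31.4% of the higher calls (23.3 to 40.8%) and 46.9% of all members. RUNX motifs were in 19.2% of the lower and 7.62% of the higher calls, against 13.4% of members. GATA members had a median GC content of 45.8%, against 48.6% for all members. The lower calls had 45.2% and the higher calls 49%. The part of base composition in these motif shares was not tested. Members with the joint GATA and E-box motif (835) were strong in wild type, with medians of 79.2, 78.1 and 77.3, and had 72.7, 71.5 and 75.1 in the homozygous libraries. Their median difference was -4.31 points.

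AP-1 members were close to the members as a whole in their median difference, before any split by GC content. Their medians (1984 members) were 76.6, 76.8 and 75.3 in wild type, 74.4, 74.3 and 74.9 in the heterozygous and 72.3, 71.6 and 76.5 in the homozygous libraries, so homozygous replicate 3 lay within the wild type range. The median difference was -3.19 points, near that of all members, and AP-1 motifs were in 17.1% of the higher calls and 20.2% of the lower ones. KLF members (602) had homozygous medians of 74.5, 74.9 and 75.4 against 73.4 to 76.2 elsewhere, with a median difference of -1.07. In the HMCN1 region shown above, the strongest member with an AP-1 motif, all 9 values lay between 99.3 and 99.9.

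The differences varied with base composition. The members were split by GC content into 4 classes of nearly equal size. In the class lowest in GC (27.4 to 43.6%), medians were 78.6, 78.7 and 76.7 in wild type, 76.1, 75.7 and 76.0 in the heterozygous and 69.5, 68.4 and 70.7 in the homozygous libraries. In the class highest in GC (55.8 to 95.6%), they were 70.8, 70.2 and 71.9 in wild type, 72.9, 71.8 and 71.6 in the heterozygous and 73.2, 73.3 and 72.0 in the homozygous libraries. The order of the genotypes in the lowest class was thus absent in the last. The median difference between homozygous and wild type was -7.21, -4.71, -3.44 and 0.0157 points from the lowest to the highest class. CTCF members were lower in each class, by medians of -11.2, -8.01, -7.29 and -5.08 points, against -7.06, -4.45, -3.19 and 0.437 for members without the core. For AP-1 members the medians were -6.59, -3.42, -1.79 and -0.468 points, against -7.46, -5.18, -4.04 and 0.0673 for members without the motif. AP-1 members thus fell less than the others in every class but the highest.

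**Figure D4:**
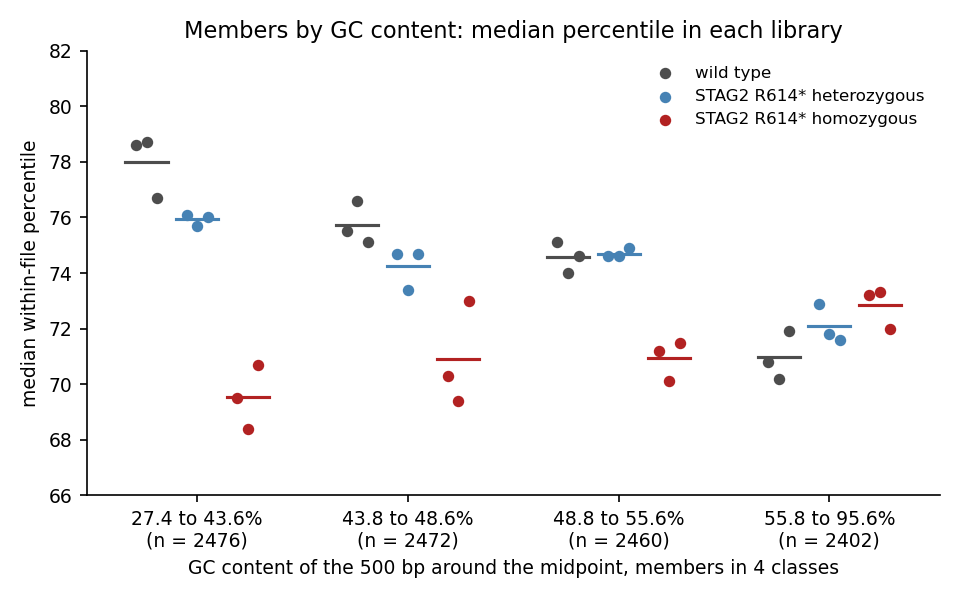
Median within-file percentile (y axis, which does not start at 0) of members in each library (points; lines are means of 3 libraries) by class of GC content (x axis). Homozygous points fall below the others in the 3 lower classes and not in the highest, where they are 72.0 to 73.3.

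Chromosome 19 stood apart from the other chromosomes. Its 184 members had medians of 65.7, 65.3 and 62.8 in wild type, 64.7, 60.6 and 59.3 in the heterozygous and 82.8, 85.2 and 82.8 in the homozygous libraries. The homozygous medians were above all 6 others, with a median difference of 13.4 points from wild type, and 84.8% of the members had a higher homozygous mean. By limma 16 of the 184 were higher and 0 lower, against a background of 0.904% and 1.29%. With each source once, 14 were higher and 0 lower (background 0.691% and 0.774%). On 184 members, 0 lower calls is close to the background. Members on chromosome 19 were rich in GC (median 60.2%). The difference was 18.2, 19.02, 13.2 and 13.1 points in the 4 GC classes, on 7, 8, 46 and 123 members. On the other chromosomes it was -7.24, -4.74, -3.58 and -0.614. Repeated words were in 39 of the 184 (21.2%), and the difference was 16.3 points with them and 12.9 without. IZUMO2, a sperm membrane protein gene on this chromosome, was the nearest gene of 3 members called higher, out of 9 members. It was picked by its calls, as the only gene with 3 or more in a search made after the calls.

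Chromosomes 15, 16, 17, 21 and 22 also had positive medians between homozygous and wild type, of 0.395, 2.08, 4.50, 0.444 and 4.95 points. Chromosome 5 had the lowest, -6.46, and chromosome X had -6.24. Between heterozygous and wild type the medians of the 23 chromosomes lay between -2.53 and 2.17 points. Chromosome 19 was at -1.48 in that comparison.

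**Figure D5:**
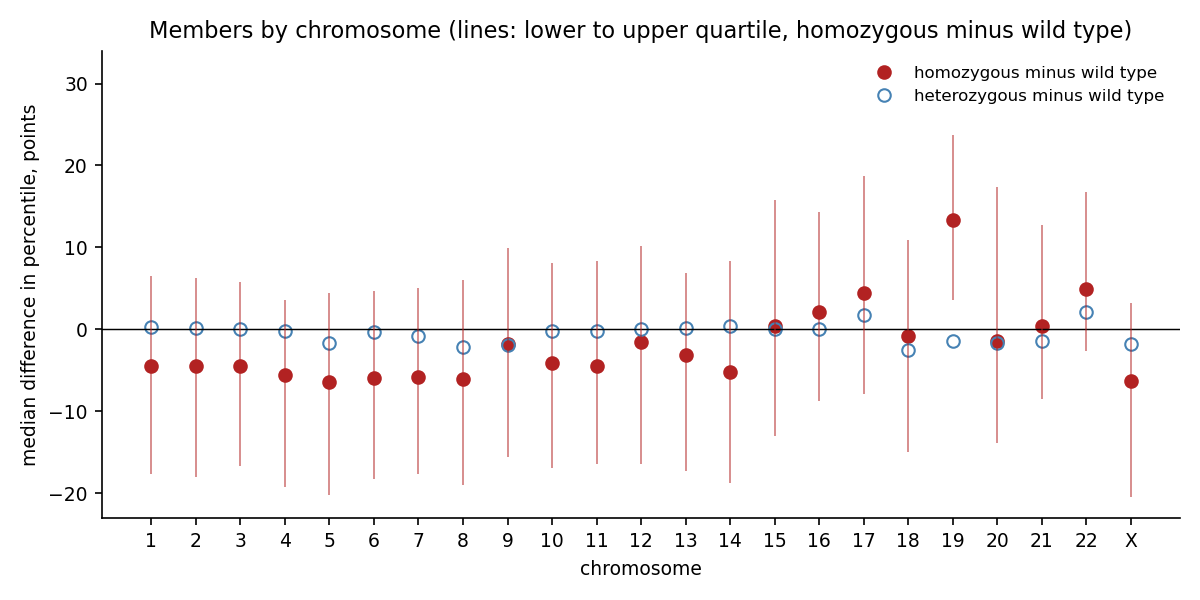
Median difference in within-file percentile (y axis, points) over the members of each chromosome (x axis), homozygous minus wild type (filled, with a line from the lower to the upper quartile of the members) and heterozygous minus wild type (open). Chromosome 19 has the highest filled point, 13.4, and its line does not cross 0.

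A small set of members was at the top of all 9 lists. In every file 285 members (2.91%) were at or above the 90th percentile, 1092 (11.1%) at or above the upper quartile of the scale and 3449 (35.2%) at or above the 50th percentile, while 1389 (14.2%) were below the 10th in at least 1 file. The 6 members with the highest lowest percentile lay near SEZ6L, NGB, OR2T1, FOXL3, BTRC and LTBP1. They were between 99.959 and 99.999 in all 9 libraries. The GC content around their midpoints was 44.4, 55.4, 34.2, 77.6, 32.6 and 95.6% in that order. No exclusion list was applied, and the part of read mapping in these ranks was not tested. The window in NGB, the neuroglobin gene, holds the run of C and T shown above. The OR2T1 region had 99.999 in all 3 wild type libraries and 99.977, 99.983 and 99.985 in the homozygous ones, and passed (limma adjusted p = 0.0179) although the difference was -0.0173 points. It shows that a call near the top of the scale can be a very small change in rank.

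At genes chosen by function, 0 members passed between homozygous and wild type by limma, against a background of 0.904% higher and 1.29% lower. The gene lists below hold few members, so 0 calls is close to the background. Of 16 erythroid and stem cell factors, 7 were the nearest gene of a member (16 members, median difference -1.89 points). Of 14 genes of erythroid products, 7 were (17 members, -8.82), and of 15 AP-1 and TEAD factors and targets, 7 were (16 members, -10.0). Of 10 adhesion genes, 5 were (7 members, -4.93), and of 10 cohesin and loop factors only RAD21 was (1 member, -10.6). The median over all members is -3.77. For LMO2, a GATA partner protein, the strongest member had 96.7, 97.0 and 96.8 in wild type, 96.9, 92.8 and 96.4 in the heterozygous and 93.8, 90.9 and 98.4 in the homozygous libraries, which overlapped. LMO2 was the nearest gene of 2 members, and their median difference between homozygous and wild type was -16.3 points.

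Values at ITGB1 were far apart without passing. At ITGB1, an integrin subunit gene, the strongest member had 95.7, 88.7 and 98.8 in wild type, 98.9, 86.2 and 90.5 in the heterozygous and 30.2, 67.3 and 74.2 in the homozygous libraries (limma adjusted p = 0.0748). Its homozygous and wild type values did not overlap. At TFRC, the transferrin receptor gene, the member had 51.2, 62.5 and 71.4 in wild type, 75.2, 52.0 and 61.5 in the heterozygous and 83.0, 90.9 and 79.0 in the homozygous libraries (limma adjusted p = 0.195). At HBE1, the embryonic globin gene, the strongest member had 93.8 to 99.7 in all 9 libraries. HBE1 was the nearest gene of 2 members, and their median difference between homozygous and wild type was -9.82 points.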

How the data were processed

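ATAC-seq peak lists of 9 K562 libraries were analysed. The submitters' processing notes name cutadapt, Bowtie2 2.2.9, Picard, MACS2 2.1.0 and the builds hg19 and GRCh37. Their roles, settings and any Tn5 shift are not given in the sources used here. The lists have no header: per the narrowPeak format, the deposited columns hold a fold enrichment (a ratio) and the −log10 of a p-value, which the authors' caller computed. The deposited score, summit offset and −log10 q were not used. Coordinates count from 1, and 0 intervals ran past a GRCh37 chromosome end. No exclusion list was applied.

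Percentiles of −log10 p were computed within the 50000 strongest peaks of each list. Peaks tied at rank 50000 were taken in the order of the list, so membership at the floor depends in part on that order. A region took its strongest peak. Start sites came from GENCODE 44 mapped to GRCh37. Normal scores of the percentiles were fitted with limma 3.58.1 (R 4.3.3, trend, all 9 libraries) over 19254 regions. The fit was tested on simulated data with independent noise in every library. That setting leaves out the shared intervals, so it cannot show how the fit behaves with them. Medians over members carry no test. Motifs were searched on both strands within 250 bp of the midpoint. Intervals cover counting error only.

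The members, motifs and gene lists were chosen with earlier results of these data known. Named members were the 6 with the highest lowest percentile and, among calls without overlap, the 5 largest differences per direction against wild type and 2 for the other comparisons. The strongest member per motif and per listed gene was added, described only in part, and some named members are not reported here. Replicate numbers did not pair libraries: deviations of 9 same-numbered pairs correlated at -0.284 to 0.14, with 1 above 0.1. Alternatives changed the peaks, ranks, scale, fit, libraries and rule.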

Additional observations from a re-analysis of the deposited data

How the results depend on the processing

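The count of members called between homozygous and wild type (308) was 136 with 30000 peaks per list and 513 with 75000. It was 8 when fold enrichment was ranked, 99 on the percentile scale and 2577 by groups that do not overlap. Without 1 library it ranged from 0 to 266, with 0 without wild type replicate 1 or 2. Alternatives chosen after seeing the data gave 0 with wild type replicates 1 and 2 averaged, and 193 without wild type replicate 3 and heterozygous replicate 1. With each source once, leaving out a source gave 139, 83, 39, 37, 110, 71 and 184. The count between homozygous and heterozygous (345) was 160 and 641 with 30000 and 75000 peaks, 55 by fold enrichment, 130 on the percentile scale and 2489 by groups that do not overlap, and 56 to 396 without 1 library. Between heterozygous and wild type it was 1190 by groups that do not overlap and 0 in every limma fit run. With a replicate block the counts were 136 against wild type and 162 against heterozygous, and 0 between heterozygous and wild type. The numbers do not pair the libraries. The cause of these changes was not tested.

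The median difference of the members (-3.77) was -3.16 by fold enrichment, -1.89 by percentile in the full list, -4.30 without members with repeated words (chosen after seeing the data) and -4.36 to -2.84 without 1 library. For CTCF members (-7.32) it was -2.82 in the full list and -9.11 to -6.78 without 1 library. For AP-1 members (-3.19) it was -4.82 with 30000 peaks and -3.93 to -1.98 without 1 library. None of these medians changed sign under the alternatives run. The members numbered 4577 with 30000 peaks and 15158 with 75000. For the named regions, 189 alternative values kept their call and 136 did not pass, and 0 reversed.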

Other observations

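The lists hold no counts, so differences are in rank within a list and not in amounts of open chromatin. Within lists, 49.96 to 61.78% of the 50000 peaks shared their −log10 p with another peak, and 593 members had a value in the largest tied block of a file. Each genotype is 1 line. The source of the shared intervals was not tested, and reads were not analysed here.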
